A study of Mus musculus with 6 samples.

Results

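The genes described here carry the signal of leukaemia inhibitory factor (LIF) from the cell surface to the nucleus and back. They are the receptor subunit genes Lifr, Il6st and Osmr, the Janus kinase genes Jak1 and Jak2, the transcription factor gene Stat3, the feedback inhibitor genes Socs2 and Socs3, and the STAT3-responsive genes Bcl3 and Pim1. They were picked by gene symbol, and all 10 were found among the 19938 genes measured on a mouse gene array. They were covered by 12 probe sets, with 1 probe set each for 8 genes and 2 each for Socs2 and Socs3. The brightest probe set over all arrays stands for a gene, and the dimmer ones are given beside it.

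The 6 arrays were hybridised with total RNA from bulk cultures of mouse induced pluripotent stem cells (iPSCs, made from fibroblasts), 3 labelled naive and 3 labelled primed. Naive cultures were grown in DMEM with 15% fetal bovine serum, amino acids, glutamine, pyruvate, beta-mercaptoethanol and LIF at 1000 U/ml, and primed cultures in fibroblast-conditioned medium with basic FGF at 8 ng/ml, on feeder cells or matrigel. The titles derive the naive cells from embryonic and the primed cells from adult dermal fibroblasts, while the source label gives embryonic fibroblasts for both. Medium, support and possibly line therefore changed together and cannot be told apart. The titles call the arrays biological replicates but do not say what was repeated. The p-values therefore cover only the spread between these arrays, which may be technical. Neither strain nor number of lines is stated in the labels.

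LIF binds the LIF receptor chain, which pairs with the shared chain gp130, the product of Il6st. Janus kinases attached to these chains then phosphorylate STAT3, which enters the nucleus and switches on its targets. Among these are the genes of SOCS proteins, which bind the receptor or its kinases and damp the signal. In mouse embryonic stem cells LIF and STAT3 sustain self-renewal in serum, and cells of the primed state depend on FGF and Activin instead.

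The labels were first set against marker genes. Background was taken on each array as the value under which 95% of 1190 chemosensory receptor genes (olfactory and vomeronasal) lay, 6.96 to 7.03. All 9 markers of pluripotent cells lay above it on every array. Of these, 7 were lower in primed cells and 0 higher, with a mean log2 level of 12.14 to 12.15 across naive and 11.52 to 11.58 across primed arrays, Pou5f1 at -1.06 and Nanog at -0.61 among them. Over all genes tested, 22.7% passed as higher in naive and 21.8% as higher in primed cells, shares to set beside each count here. Markers of the 2 states were mixed. Of 9 naive markers, 4 passed as higher in naive cells and 2 as higher in primed cells. Dppa3 (-2.81), Fbxo15 (-0.90) and Klf2 (-0.59) went with the labels, while Esrrb (2.98) and Nr0b1 (2.29) went against them, as primed minus naive differences in log2 units. Of 9 primed markers, 5 passed as higher in primed cells and 3 as higher in naive cells. Car14 (2.11), Otx2 (0.92), Zic2 (0.64), Sox3 (0.45) and Fzd7 (0.29) went with the labels, and Fgf5 (-1.71), Lef1 (-1.38) and Dnmt3b (-0.50) against them. Zfp42, Prdm14 and Tcl1, markers of the naive state, lay in background in both groups. Tcl1 (-0.32) was the remaining gene of the 4 that passed as higher in naive cells. Dppa3 lay in background in primed cells, at 6.18. Naive and primed are used below as the labels use them. Of the 12 fibroblast markers, 5 were lower and 2 higher in primed cells, with a mean level between 7.52 and 7.58 across naive and between 7.59 and 7.64 across primed arrays, and Lum, Postn and Prrx1 in background in both groups. The largest change among them was that of Dcn, the gene of the matrix proteoglycan decorin, from 7.25 to 10.15 (2.89, adjusted p = 1.38e-10), while the median of the list was -0.12. Of the 10 markers of endoderm and trophoblast, 5 were lower in primed cells and 0 higher. Those that passed were the trophoblast genes Krt7 (-1.92), Gata3 (-1.28), Tfap2c (-0.72), Cdx2 (-0.37) and Elf5 (-0.26), and none of the endoderm genes Gata4, Gata6, Sox17, Sox7 and Foxa2 passed (adjusted p from 0.085 to 0.904). In this list Elf5 lay in background in primed cells, Sox7 in naive cells and Sox17 in both groups. The list stood at a mean level between 8.04 and 8.10 across naive and between 7.59 and 7.66 across primed arrays. Of the 7 macrophage and blood cell markers, 6 lay in background in both groups, Ptprc and Csf1r among them. The other, Cd68, lay above it at 10.79 in naive and 10.66 in primed cells and did not pass. In this list 2 genes were lower and 0 higher in primed cells, Csf1r and Aif1, both in background. The mean level was between 6.81 and 6.91 across naive and between 6.74 and 6.79 across primed arrays. The part of other cell types in the differences below was not tested.

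The LIF pathway genes were lower in primed than in naive cells, with the exception of Jak1. In limma, with p-values adjusted over all genes by Benjamini-Hochberg and a threshold of 0.05, 9 of the 10 passed as higher in naive cells and 0 as higher in primed cells. Over all genes tested, 22.7% passed in the naive and 21.8% in the primed direction, 44.5% in all. Among genes above background in at least 1 group, 28.8% were higher in naive and 27.8% higher in primed cells, and 8 of the 9 members above background were higher in naive cells. The median difference of the 10 genes was -0.48, against -0.0015 over all genes, where every difference is primed minus naive on the log2 scale of the array values. When each array was centred on its median, which lowered all differences by 0.07 (-0.07), the counts over all genes became 6325 higher in naive and 3439 higher in primed cells, from 4529 and 4347, and the members' counts stayed at 9 and 0. Between arrays of a group the members spread by a median SD of 0.08 in naive and 0.06 in primed cells, and the smallest difference that passed in a gene above background was -0.31 (Il6st). In bulk cultures, fewer cells that express a gene and less RNA per cell cannot be told apart.

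**Figure D1:**
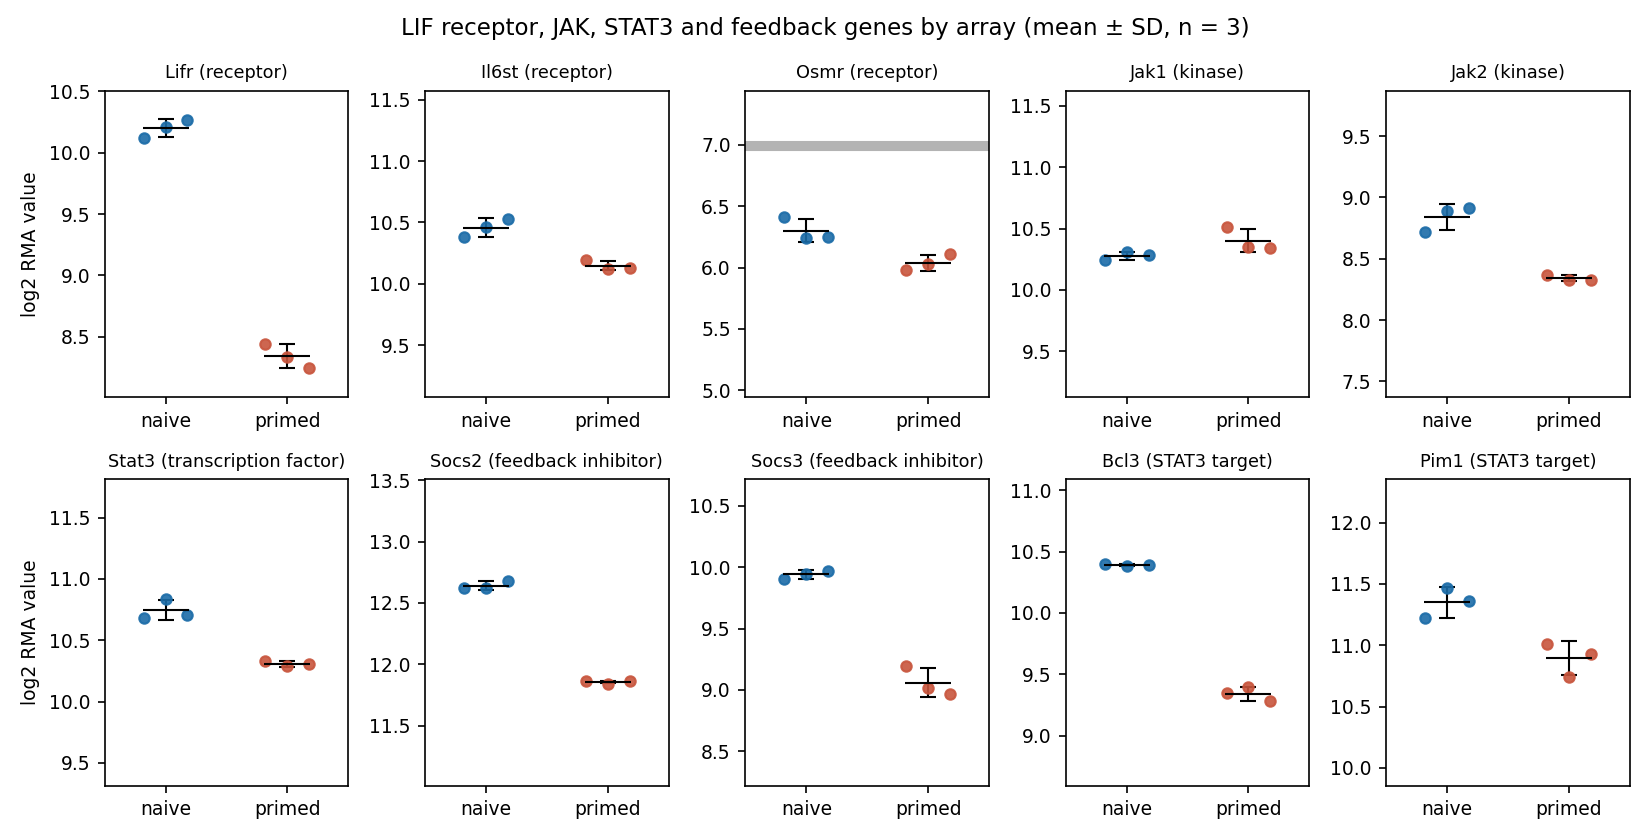
Log2 RMA value (vertical axis) of each of the 10 genes on the 3 naive (blue) and 3 primed (red) arrays, with a horizontal line for the mean and bars for the SD (n = 3). Every panel spans the same number of log2 units, and the grey band in the Osmr panel is the range of the background cutoffs, 6.96 to 7.03. The groups are separate for all 10 genes, with primed arrays lower for all but Jak1. Over all genes tested, groups are separate for 27.0% with naive arrays higher and 25.9% with primed arrays higher.

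Among the receptor genes, Lifr, which encodes the chain that gives LIF its specificity, showed the largest difference of all members. Its log2 values were 10.12, 10.21 and 10.27 on the naive arrays and 8.44, 8.34 and 8.25 on the primed arrays. The groups were separate by more than 1 log2 unit, and the primed values stayed above background. The means were 10.20 ± 0.07 and 8.34 ± 0.10 (SD, n = 3), a difference of -1.86 (SE 0.06, adjusted p = 1.97e-09), which is 3.63-fold in favour of naive cells with a 95% interval of 3.291 to 4.004. Of all genes tested, 0.662% had a larger difference in either direction.

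Il6st encodes gp130, the signalling chain shared by LIF, interleukin-6 and their relatives. Its values were 10.38, 10.46 and 10.53 in naive and 10.19, 10.12 and 10.13 in primed cells. All naive arrays lay above all primed arrays, but the step was small. The difference was -0.31 (SE 0.06, adjusted p = 0.000894), or 1.24-fold (95% interval 1.13 to 1.35), and 26.5% of all genes differed by more. The intervals of Lifr (-2.00 to -1.72) and Il6st (-0.43 to -0.18) did not meet.

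Osmr encodes the chain that pairs with gp130 to receive oncostatin M. It was in background on every array, at 6.41, 6.24 and 6.25 in naive and 5.98, 6.03 and 6.11 in primed cells. The difference of -0.26 (SE 0.06, adjusted p = 0.00466) passed the threshold, but values under the cutoff of 6.96 to 7.03 give no measure of a transcript level. It is counted among the 9 and was the member that left the count where dim genes were removed.

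The Janus kinase genes did not move together. Jak2 lay at 8.71, 8.89 and 8.92 in naive and at 8.37, 8.33 and 8.33 in primed cells. The naive arrays were all higher, with naive replicate 1 nearest to the primed arrays. The difference was -0.50 (SE 0.06, adjusted p = 4.55e-05), or 1.41-fold (95% interval 1.29 to 1.55). Jak1, which encodes another kinase that gp130 binds, lay at 10.24, 10.31 and 10.28 in naive and at 10.51, 10.35 and 10.34 in primed cells. Primed arrays were higher without overlap, as for 25.9% of all genes in that direction, and primed replicate 1 was the highest. Jak1 did not pass (0.12, 95% interval -0.01 to 0.25, adjusted p = 0.121 in limma). Without primed replicate 1 the difference was 0.07, and with arrays centred on their median 0.05, and with quantile normalization it was 0.15 and passed (adjusted p = 0.025).

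Stat3 encodes the transcription factor that LIF activates. Its values were 10.68, 10.84 and 10.71 in naive cells and 10.33, 10.29 and 10.31 in primed cells. The primed arrays lay close together and under all naive arrays. The means were 10.74 ± 0.08 and 10.31 ± 0.02 (SD, n = 3), which differed by -0.43 (SE 0.06, adjusted p = 6.67e-05), or 1.35-fold (95% interval 1.24 to 1.47), and 17.2% of all genes differed by more. The array measures RNA, and the phosphorylated form of STAT3 was not measured.

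The feedback inhibitor genes were both lower in primed cells. Socs3 encodes the inhibitor that binds gp130 and blocks the attached kinases. It lay at 9.91, 9.95 and 9.97 in naive and at 9.19, 9.02 and 8.97 in primed cells, separate groups with a wider spread in primed cells (SD 0.12 against 0.03). The difference was -0.88 (SE 0.06, adjusted p = 6.75e-07), or 1.84-fold (95% interval 1.67 to 2.04). A dimmer probe set, matched in the platform annotation to 1 accession only, lay at 7.30, 7.27 and 7.29 in naive and at 7.15, 7.19 and 7.15 in primed cells, just above background. It was lower in primed cells on every array but did not pass in the test over probe sets (-0.12, 95% interval -0.23 to -0.02, limma adjusted p = 0.064). With both probe sets averaged, Socs3 differed by -0.50. Socs2, whose product restrains growth hormone and other cytokine receptors and which LIF induces, lay at 12.62, 12.62 and 12.68 in naive and at 11.86, 11.84 and 11.86 in primed cells. The groups were separate and tight (SD 0.04 and 0.01), and the difference was -0.79 (SE 0.05, adjusted p = 1.97e-07), or 1.73-fold (95% interval 1.61 to 1.87). Its dimmer probe set moved the same way, from 10.10, 10.13 and 10.18 to 9.61, 9.60 and 9.45, a difference of -0.59 (SE 0.06, adjusted p = 1.28e-05 over probe sets). Over all 12 member probe sets, 10 passed in the naive direction and 0 in the primed direction, where 22.2% and 21.4% of the 21789 probe sets did.

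Bcl3 and Pim1 are genes that STAT3 is known to switch on. Bcl3 encodes a nuclear partner of NF-kB proteins. Its values were 10.40, 10.38 and 10.39 in naive cells and 9.34, 9.39 and 9.28 in primed cells. The groups were far apart beside their spread (SD 0.0082 and 0.05). The difference was -1.05 (SE 0.05, adjusted p = 2.99e-08), or 2.07-fold (95% interval 1.91 to 2.24). Lifr and Bcl3 were the 2 members that passed with a change of at least 2-fold in favour of naive cells, as 1.84% of all genes did. Pim1 encodes a serine/threonine kinase that favours survival. It lay at 11.22, 11.47 and 11.36 in naive and at 11.01, 10.74 and 10.93 in primed cells, the widest spread of the members (SD 0.13 and 0.14). The groups did not overlap, and the difference was -0.45 (SE 0.08, adjusted p = 0.000749), or 1.37-fold (95% interval 1.21 to 1.55).

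**Figure D2:**
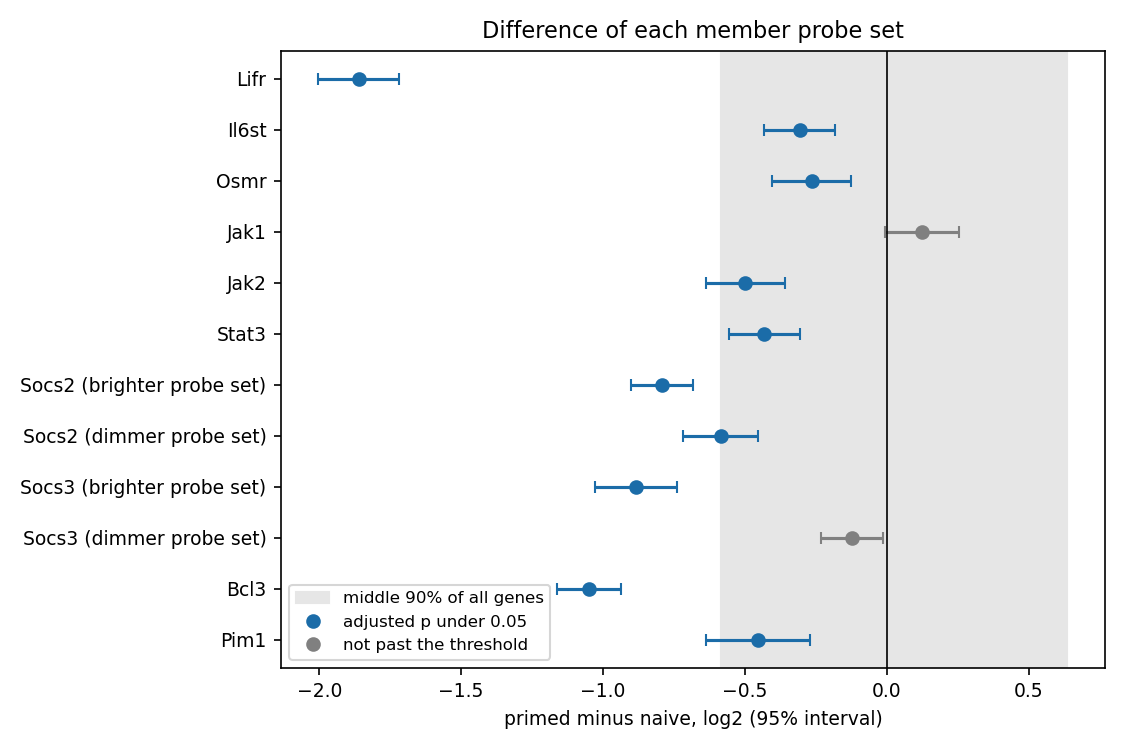
Primed minus naive difference (horizontal axis, log2) of the 12 probe sets with 95% intervals from limma over all probe sets, blue where the adjusted p was under 0.05. The grey band holds the middle 90% of all genes, from -0.58 to 0.64. Lifr stands apart at -1.86, Bcl3, Socs3 and Socs2 follow between -1.05 and -0.79, and Jak1 and the dimmer Socs3 probe set are grey.

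The groups did not overlap, with naive arrays higher, for 9 of the 10 genes, against 27.0% of all genes. By size the order was Lifr, Bcl3, Socs3, Socs2, Jak2, Pim1, Stat3, Il6st, Osmr and Jak1. Lifr stood apart from its neighbour, since its interval ended at -1.72 and that of Bcl3 (-1.16 to -0.93) began above it. Bcl3, Socs3 (-1.03 to -0.74) and Socs2 (-0.90 to -0.68) had intervals that met from each to the next. The intervals of Jak2, Pim1, Stat3, Il6st and Osmr likewise met from each to the next, and that of Jak2 (-0.63 to -0.36) ended short of that of Socs2. Jak1 alone lay on the primed side.

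**Figure D3:**
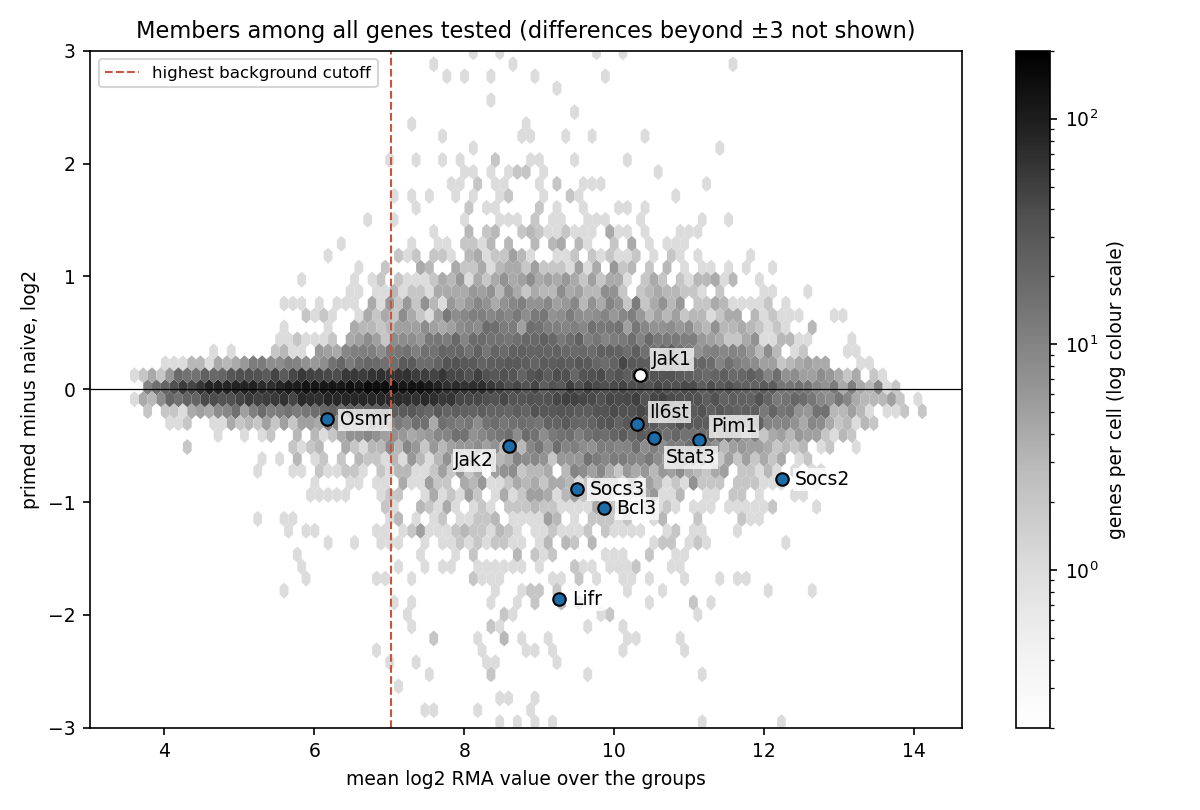
Primed minus naive difference (vertical axis, log2) against the mean log2 RMA value (horizontal axis) of all 19938 genes, drawn as grey cells on a log colour scale, with the 10 members as points (white for Jak1, which did not pass). The dashed line is the highest background cutoff, 7.03, and 20 genes beyond 3 in size are not shown. Lifr, Bcl3, Socs3 and Socs2 lie from -1.86 to -0.79, below the other members, and Osmr lies left of the cutoff.

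Promoters of the members with the largest differences are printed to show what lies at starts listed for them. STAT3 binds DNA at short inverted repeats, and whether it bound these genes in these cells was not tested. The RefSeq table of assembly GRCm38.p6 held 11 promoters for 9 of the members, each from 250 bases before to 50 bases after a start. The windows of both listed Lifr starts lay inside the annotated gene, chr15:7090610-7197489, and its 5′ end was not searched. The Osmr window also lay inside its gene. The promoters of Lifr (the first of its listed starts), Bcl3 and Socs3 read as follows, 5′ to 3′ on the strand of the gene. They are in lower case, with a match to the STAT-type repeat in capitals.
Lifr promoter, chr15:7129322-7129621, forward strand: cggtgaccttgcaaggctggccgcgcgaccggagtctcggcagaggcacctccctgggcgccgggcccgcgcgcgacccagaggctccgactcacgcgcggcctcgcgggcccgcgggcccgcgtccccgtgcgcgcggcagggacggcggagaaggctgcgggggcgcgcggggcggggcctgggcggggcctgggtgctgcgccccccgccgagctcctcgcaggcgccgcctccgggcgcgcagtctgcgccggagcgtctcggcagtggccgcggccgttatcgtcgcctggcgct
Bcl3 promoter, chr7:19822706-19823005, reverse strand: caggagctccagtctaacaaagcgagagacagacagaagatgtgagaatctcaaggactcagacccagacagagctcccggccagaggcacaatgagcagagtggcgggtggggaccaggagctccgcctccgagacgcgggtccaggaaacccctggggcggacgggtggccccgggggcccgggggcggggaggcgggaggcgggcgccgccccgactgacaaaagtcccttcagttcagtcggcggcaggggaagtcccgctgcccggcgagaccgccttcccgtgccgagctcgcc
Socs3 promoter, chr11:117969317-117969616, reverse strand: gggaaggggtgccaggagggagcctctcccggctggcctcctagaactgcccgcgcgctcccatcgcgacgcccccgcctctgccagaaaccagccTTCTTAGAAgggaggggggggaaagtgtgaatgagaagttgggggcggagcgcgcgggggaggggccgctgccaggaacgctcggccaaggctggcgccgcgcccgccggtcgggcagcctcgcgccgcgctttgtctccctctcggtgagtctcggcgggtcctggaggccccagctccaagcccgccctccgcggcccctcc

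The repeat searched was TTCNNNGAA, which reads the same on both strands, with its stricter form TTCCNGGAA, every match of which is also a match of the first. In the Socs3 window the match TTCTTAGAA ran from base -154 to base -146 before the listed start, at chr11:117969512-117969520. The whole window, match included, lay inside the annotated gene, chr11:117966079-117970336 on the reverse strand. The match therefore lay downstream of the annotated 5′ end, and the sequence before that end was not searched. TTCTTAGAA was the only match among the 11 promoters. That is 1 of 11, where 8.3% of all 32851 promoters of this length held the repeat. The stricter form was in 0 of the 11, and in 1.15% of all promoters. The Lifr and Bcl3 windows shown above held neither. For Lifr this does not cover the annotated 5′ end of the gene. These matches describe letters in a window and are not measured binding.

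The other genes of the pathway did not all follow the members. The 8 ligand genes of the IL-6 family that were measured included 0 that passed in either direction in limma, where 44.5% of all genes did. None of the 8 had an unadjusted p under 0.05. The list was dim, with a mean level of 7.17 to 7.25 across naive and 7.20 to 7.23 across primed arrays. The background cutoffs were 6.96 to 7.03, so changes of these genes may be hard to see. Lif itself lay at 7.88, 8.04 and 7.85 in naive and at 8.11, 7.99 and 8.09 in primed cells, overlapping groups with a difference of 0.14 (95% interval -0.00 to 0.28, adjusted p = 0.107). Without naive replicate 2, Lif passed in the primed direction (0.20, adjusted p = 0.0268). Clcf1 was at 0.11 and Il11 at 0.05 (-0.03 with arrays centred on their median), and Il6 and Osm were in background in both groups. With arrays centred on their median, Osm and Ctf2 passed in the naive direction (-0.20 and -0.16). The median over the 8 ligands was 0.02.

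The receptor chains for other members of the family went different ways. Il6ra, which binds interleukin-6 and hands it to gp130, lay at 8.62, 8.62 and 8.54 in naive and at 7.89, 8.15 and 8.01 in primed cells, a difference of -0.58 (SE 0.07, adjusted p = 3.06e-05). Cntfr, the gene of the ciliary neurotrophic factor receptor, which signals through the LIF receptor and gp130, rose from 11.62 ± 0.04 to 12.03 ± 0.05 (SD, n = 3), without overlap (0.41, SE 0.05, adjusted p = 5.89e-05). Il27ra did not pass (0.15, adjusted p = 0.108), and without primed replicate 1 it did (0.20, adjusted p = 0.048). Of the 3 receptor genes, 1 was thus lower and 1 higher in primed cells (33.3% each), where 22.7% and 21.8% of all genes were.

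STAT genes other than Stat3 mostly rose. Of 6 genes for other Janus kinases and STATs, 4 were higher and 1 lower in primed cells, with a median of 0.41. These were 66.7% and 16.7% of the list, where 21.8% of all genes were higher and 22.7% lower in primed cells. Stat2, which acts with interferon, rose by 0.71, Stat5b by 0.65, Stat5a by 0.42 and Stat6, which serves interleukin-4, by 0.39. Stat4, which serves interleukin-12, went the other way, from 10.05, 10.02 and 10.14 to 8.70, 8.66 and 8.61. That difference of -1.42 (SE 0.06, adjusted p = 5.14e-09) was 2.67-fold in favour of naive cells, and 1.4% of all genes differed by more. Tyk2 did not pass (-0.14, adjusted p = 0.201), but did without primed replicate 1 (-0.25, adjusted p = 0.00922), with arrays centred on their median (-0.21) and with quantile normalization (-0.21).

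Other inhibitors of the pathway went both ways, at shares near those of all genes. Of 14 genes, 4 were lower in primed cells, 3 were higher and the other 7 did not pass, with a median of -0.04. These were 28.6% lower and 21.4% higher, where 22.7% and 21.8% of all genes were. Among genes above background in at least 1 group the shares were 28.8% and 27.8%. Socs6 fell by 0.54 and Ptpn6, the gene of the phosphatase SHP-1, fell by 0.39. Ptpn2, whose product removes phosphate from Janus kinases and STATs, differed by -0.21 (adjusted p = 0.0142) and Socs5 by -0.17 (adjusted p = 0.0311). The Ptpn2 call ended without naive replicate 2 (-0.16, adjusted p = 0.06). The Socs5 call ended without naive replicate 1, naive replicate 2, primed replicate 1 or primed replicate 2, with adjusted p from 0.0753 to 0.111. Socs7 rose by 0.42, Pias3, the gene of an inhibitor of STAT3, by 0.22 and Pias2 by 0.21. Socs1 (-0.05), Cish (0.09), Pias1 (-0.02, and 0.06 with quantile normalization) and Ptpn11 (-0.11), the gene of SHP-2, did not pass. Ptpn11 did with arrays centred on their median (-0.18). Socs4 did not pass (-0.10), and without naive replicate 1 it did (-0.16, adjusted p = 0.0451).

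Other genes reported as STAT3 targets mostly went with the members. Of 16 genes, 11 were lower in primed cells and 1 was higher, with a median of -0.31. These were 68.8% and 6.25% of the list, where 22.7% of all genes were lower and 21.8% higher in primed cells. Sgk1, the gene of a serum- and glucocorticoid-induced kinase, showed the largest difference, from 9.52, 9.65 and 9.57 to 7.08, 7.10 and 7.06, just above background. The difference was -2.50 (SE 0.05, adjusted p = 7.23e-11), or 5.67-fold. The transcription factor genes Myc (-0.67), Tfcp2l1 (-0.60), Klf5 (-0.58) and Gbx2 (-0.38), which sustain self-renewal downstream of LIF, all fell. Sbno2 (-0.52), Pim2 (-0.42), the survival gene Bcl2l1 (-0.33), Junb (-0.29) and Cebpd (-0.23) were lower as well. Klf4 differed by -0.23 (adjusted p = 0.0193), a call that ended without naive replicate 2 (-0.19, adjusted p = 0.0798) or primed replicate 2 (-0.17, adjusted p = 0.0867). Fos rose by 0.32. Pim3 (-0.03, and 0.03 with quantile normalization), Ier3 (-0.07), Mcl1 (0.09) and Hif1a (-0.08) did not pass. With quantile normalization Ier3 (-0.14) and Mcl1 (0.20) passed. The trophoblast markers that passed and 7 of the 9 pluripotent cell markers, described above, were lower in primed cells alongside these genes.

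**Figure D4:**
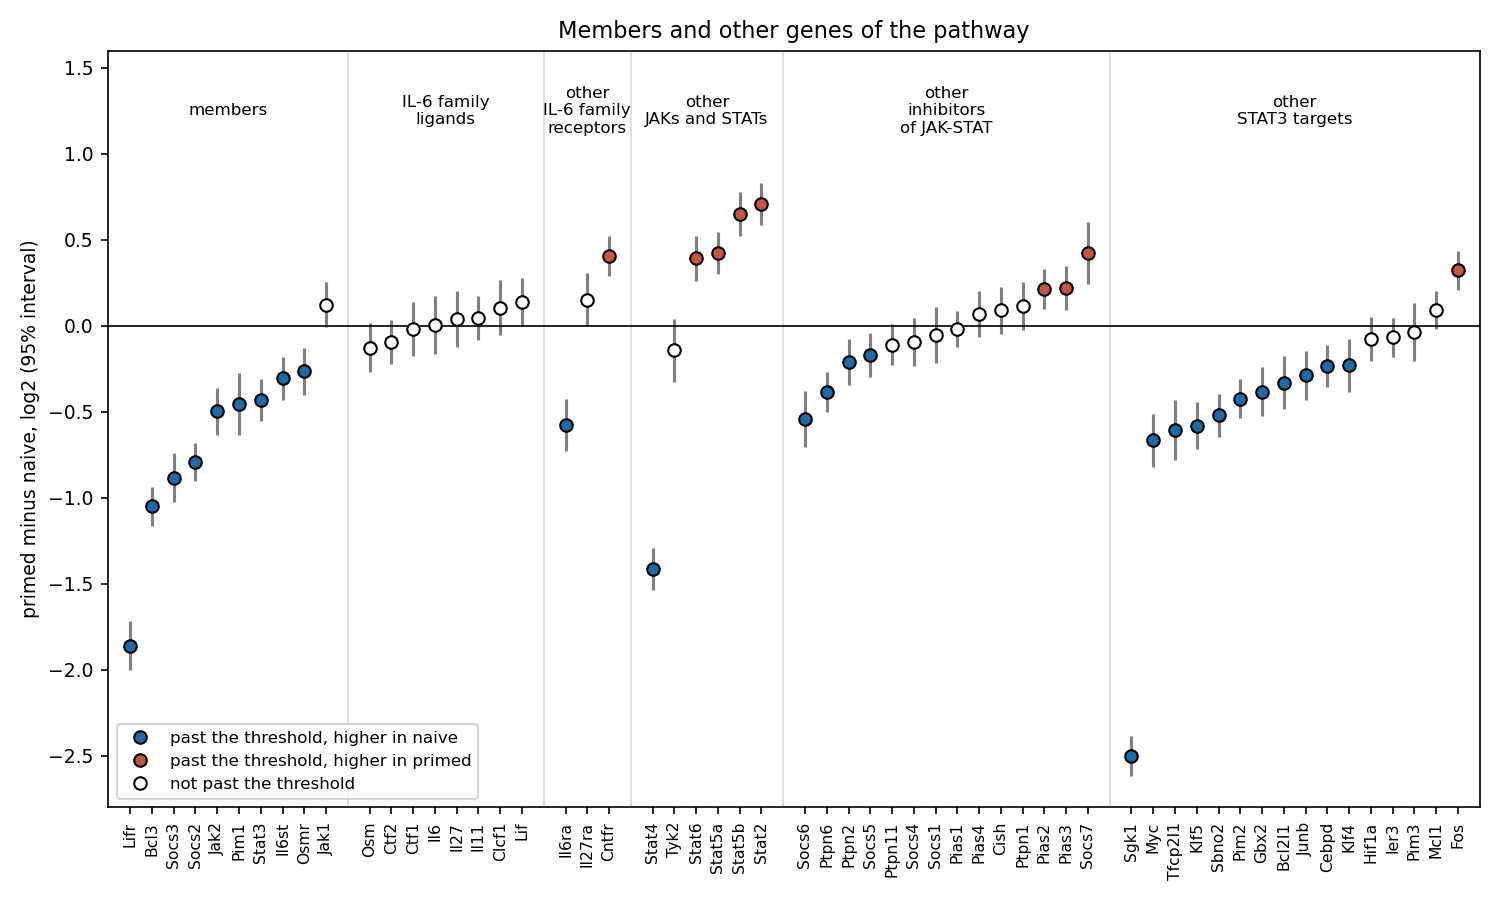
Primed minus naive difference (vertical axis, log2, with 95% intervals) of the 10 members and of the other genes of the pathway, ordered by size within each list. Filled points passed the threshold, blue where naive cells were higher and red where primed cells were higher. The ligands are all open points near 0, the STAT genes of the list of other JAKs and STATs are red apart from Stat4, and most STAT3 targets are blue, down to Sgk1 at -2.50.

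The genes whose profile over the 6 arrays was nearest to that of a member were found among 13917 genes. These were above background in at least 1 group, leaving out the member itself and predicted genes (symbols of the Gm, LOC and Rik types). Likeness was the root mean square (RMS) difference of values centred on each gene's mean. Nearest to Lifr were Neto2, the gene of an auxiliary subunit of glutamate receptors, at an RMS of 0.0611, Cd80, which encodes a ligand for T cell co-receptors, at 0.062, and the microRNA gene Mir377 at 0.0633. Neto2 went from 9.69, 9.82 and 9.79 in naive to 8.05, 7.96 and 7.97 in primed cells. Nearest to Il6st were Pacrgl (0.013), Fnbp4 (0.0203) and the zinc finger gene Zfp781 (0.0204). Nearest to Stat3 were Tbk1 (0.0123), the gene of a kinase of innate immune signalling, Ppwd1 (0.0156) and Tax1bp1 (0.0182). Tbk1 lay at 9.90, 10.05 and 9.92 in naive and at 9.52, 9.51 and 9.50 in primed cells. Its high array, naive replicate 2, was that of Stat3, which follows from choosing genes by likeness over these arrays.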

How the data were processed

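The 6 arrays gave log2 values for 35556 probe sets, which the authors deposited. The submitters' processing notes name RMA, a robust multi-array average, and Partek 6.6. The sources used here do not state background options, genome build or detection calls. RMA compresses differences of dim genes. Probe sets were named through the platform annotation. Of these, 21789 had 1 gene symbol, 1621 had several and were not used, and 12146 are not named here. Gene IDs matched RefSeq of assembly GRCm38.p6 for 21698, which gave current symbols. The brightest probe set stood for each of 19938 genes. Primed arrays were set against naive arrays by lmFit and eBayes of limma 3.58.1 (R 4.3.3) in a two-sided test without covariates, with Benjamini-Hochberg adjustment and a threshold of 0.05, tested first on simulated data. Fold changes are powers of 2 of the log2 differences. The number of arrays, 3 per group, limits the precision. Members, lists and tests were chosen with earlier results of these data known, so lists are described by counts and medians only. All members are named, as is every other pathway gene that passed and up to 4 per list that did not, with further ones chosen after their values were seen. Likeness, promoter matches and figures were computed in R, Python 3.11.15 and matplotlib 3.10.9. Alternatives were median centring, quantile normalization, array weights, an intensity trend in eBayes, averaging a gene's probe sets, dropping genes under the 40th percentile of mean value, a replicate block, an adjusted p under 0.01, leaving out each array and, chosen after seeing the data, only genes above background.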

Additional observations from a re-analysis of the deposited data

How the results depend on the processing

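Every member kept its direction under each of the 15 alternatives in which it was measured. The filters on dim genes, intensity trend, replicate block and adjusted p under 0.01 leave each difference unchanged, so direction could not change there. Averaging probe sets likewise left the differences of members with 1 probe set unchanged. Of 148 comparisons of a member, 147 kept their side of the threshold, the exception being Jak1 with quantile normalization. That setting therefore gave 1 member, and 1 member probe set, higher in primed cells in place of 0. The dimmer Socs3 probe set passed with median centring, quantile normalization, array weights or without genes in background, with adjusted p from 0.0069 to 0.0464. Averaging probe sets reduced Socs3 to -0.50 and Socs2 to -0.69. Osmr was removed by either filter on dim genes, which left 8 members called in naive cells. Leaving out each array in turn gave 9 members in naive and 0 in primed cells each time. Such fits gave 0 to 1 ligands in the primed direction, 1 to 2 receptors in the primed direction, 1 to 2 kinase and STAT genes in the naive direction and 2 to 4 inhibitors in the naive direction. Median centring gave 2 ligands in naive cells, and it, quantile normalization and array weights each gave 2 kinase and STAT genes there. An adjusted p under 0.01 left 2 inhibitors in naive cells. Quantile normalization and the intensity trend each gave 2 other STAT3 targets in primed cells. The cause of these changes was not tested. Same-numbered arrays did not deviate together (correlations of -0.109, 0.00151 and -0.0206 for replicates 1, 2 and 3). Different-numbered arrays gave -0.092 to 0.0954. With 3 arrays per group, such correlations cannot tell whether same-numbered cultures were handled together. With the replicate block, 9 members were called in naive and 0 in primed cells, among 4344 and 4172 genes, and 3 inhibitors in naive cells. With signal near background, as for Osmr and the dimmer Socs3 probe set, the arrays limit what can be read.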

Other observations

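The order of the arrays within a group was counted over the members, as a description with no test, since the members share the same arrays. Naive replicate 1 was the lowest naive array for 8 of the 10 members, while it was the lowest for 34% of all genes. Primed replicate 1 was the highest primed array for 8 of the 10 members, and the highest for 46.1% of all genes. For Lifr the 2 arrays were at 10.12 and 8.44, and for Socs3 at 9.91 and 9.19. Bcl3 and Osmr did not share this order, with naive replicate 1 the highest of its group for both, at 10.40 and 6.41. The Osmr values lay in background.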
